A study of Rattus norvegicus with 14 samples.

Results

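The genes Nefl, Nefm, Nefh and Ina encode the light, medium and heavy neurofilament subunits and alpha-internexin. They were chosen by name, and every probe set whose platform annotation gives one of them alone was taken. That gave 6 of the 15923 probe sets on the array: 2 for Nefl (1370059_at and 1370058_at), 1 for Nefm (1367845_at), 1 for Nefh (1370815_at) and 2 for Ina (1387226_at and 1371148_s_at). All 6 lay above the filter on dim probe sets, a mean log2 level of 3.88, so none had to be set aside. The brighter and the dimmer probe set of Nefl and of Ina are given in that order, and they are called brighter and dimmer below.

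RNA came from the microdissected CA3 field of the hippocampus of male Long-Evans rats aged 3 to 4 months, 7 per group, and each sample was hybridised to an Affymetrix RAE230A array. Rats of both groups had learned a standard water maze, and 2 to 3 weeks later they swam 8 trials at intervals of 8 min in an unfamiliar maze with a visible platform. For the learning activated rats the maze had orienting cues and the platform kept its place. For the control rats the platform moved from trial to trial and informative cues were absent, so the swimming was shared and the spatial information was not. All rats swam a probe trial of 90 s without the platform 1 h after the last trial, and tissue was taken directly after it. The comparison asks whether rapid spatial encoding alters CA3 transcripts. Cues and platform movement differed together with it and cannot be told apart from it.

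Neurofilaments are the intermediate filaments of neurons. The light subunit is needed to build the filament core, the long phosphorylated tails of the medium and heavy subunits project from it as side arms, and alpha-internexin assembles with the other subunits and is abundant in the central nervous system. The filaments fill axons and help to set their calibre, and subunits are also found at synapses, where the light subunit is known to bind receptor proteins. The brain holds many glial cells that use other intermediate filaments, such as vimentin and GFAP.

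Nefl, the core subunit, was slightly higher after spatial learning at both of its probe sets, while Nefm and Nefh, the side-arm subunits, were not called in either direction. Ina was called higher at its dimmer probe set and not at its brighter one. A probe set is called here when its adjusted p from limma, corrected over all 9520 tested probe sets, is under 0.05. By this rule 3 of the 6 probe sets were called, all higher, against a background of 3.35% of all tested probe sets, 2.55% called higher and 0.798% called lower. In 0 of the 6 were the groups fully apart, which was so for 2.1% of all tested probe sets. The plot of levels by array shows both groups for each probe set.

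**Figure D1:**
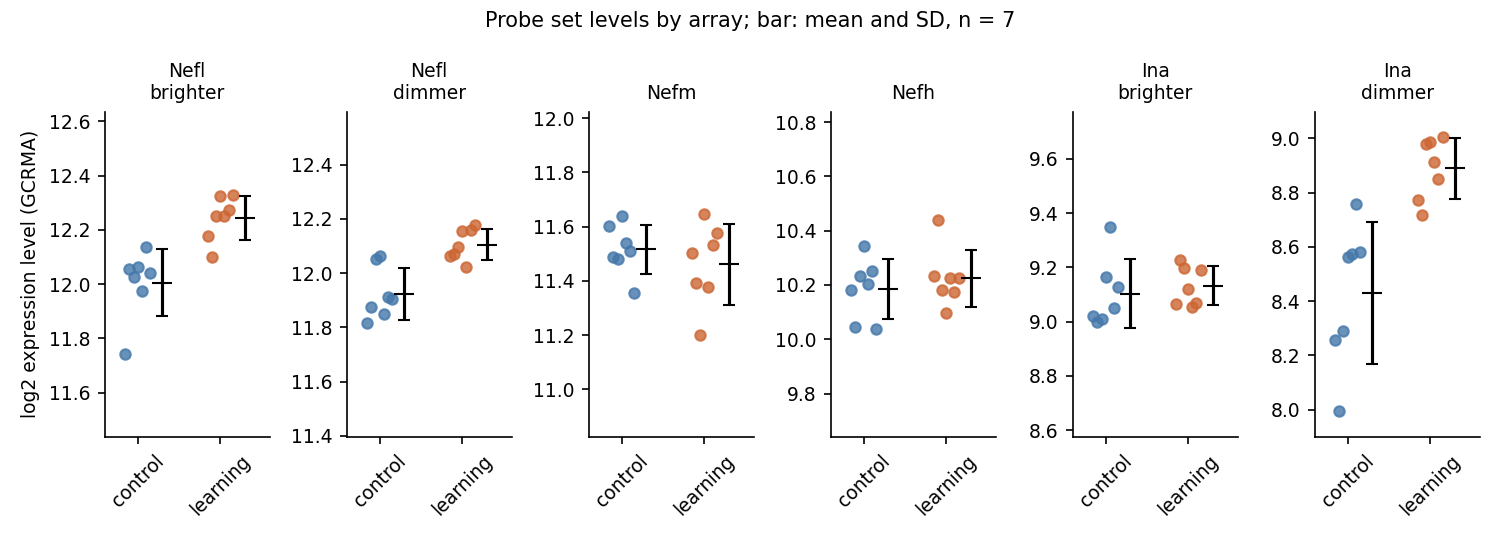
Log2 expression level (GCRMA) of each of the 6 probe sets on the 14 arrays, with control in blue and learning activated in orange, points for single arrays, and a bar for the mean and SD of 7. Every panel spans the same height on the log2 axis, so that shifts can be compared: both Nefl panels and the dimmer Ina panel shift upward, while the groups of Nefm, Nefh and the brighter Ina probe set lie over each other.

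At the brighter Nefl probe set the control arrays ran from a log2 level of 11.74 through a median of 12.04 to 12.14, and the learning activated arrays from 12.10 through 12.25 to 12.33. The groups met only at their edges: 6 of 7 learning activated arrays lay above the highest control array, and all 7 above the control mean. The means were 12.24 ± 0.08 and 12.01 ± 0.12 (SD, n = 7 each), a log2 fold change of 0.24 (SE 0.0555), or 1.18-fold with a 95% interval from 1.09-fold to 1.28-fold (adjusted p = 0.0333). The same difference gave a two-sided exact permutation p of 0.00117 before any adjustment.

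The dimmer Nefl probe set gave a smaller shift of the same kind. Its control arrays ran from 11.82 through 11.90 to 12.06, and its learning activated arrays from 12.02 through 12.10 to 12.18. Here 5 of 7 learning activated arrays exceeded the highest control array, and all 7 the control mean. The log2 fold change was 0.18 (SE 0.0447), or 1.13-fold with an interval from 1.06-fold to 1.21-fold (adjusted p = 0.0395, unadjusted exact permutation p = 0.0035). The platform annotation gives both Nefl probe sets the same source sequence, so they are not independent measures of the transcript. Their group-centred levels correlated at r = 0.55 over the 14 arrays.

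The call of Nefl rests close to the threshold. At the brighter probe set the adjusted p was between 0.0530 and 0.0716 without control replicate 2, 3 or 5 or learning activated replicate 3, 4, 5, 6 or 7, 8 of the 14 arrays. At the dimmer one it lay between 0.0502 and 0.0832 without any of 11 arrays, all but control replicates 3 and 4 and learning activated replicate 5. The log2 fold change itself stayed between 0.19 and 0.26 at the brighter and between 0.13 and 0.20 at the dimmer probe set over 29 alternatives.

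Nefm, the medium subunit, had group means of 11.52 ± 0.09 in control and 11.46 ± 0.15 in learning activated arrays (SD, n = 7 each). Its control arrays ran from 11.36 through 11.51 to 11.64 and its learning activated arrays from 11.20 through 11.50 to 11.65, so that the learning activated range enclosed the control range. The log2 fold change was -0.05 (SE 0.0638, limma adjusted p = 0.691), with an interval from -0.19 to 0.08. A rise of Nefm as large as the 0.24 of the brighter Nefl probe set lies outside that interval. In the RefSeq gene table of assembly GRCr8, Nefl and Nefm are neighbours, with no other protein-coding gene between them.

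Nefh, the heavy subunit, was not called either. Its control arrays ran from 10.04 through 10.20 to 10.35, and its learning activated arrays from 10.10 through 10.23 to 10.44. The groups overlapped, with 1 learning activated array, replicate 2, above the highest control array and 2 control arrays below the lowest learning activated one. The log2 fold change was 0.04 (SE 0.0570, limma adjusted p = 0.750), with an interval from -0.08 to 0.16.

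For Ina, alpha-internexin, the answer depended on the probe set. The brighter one ran from 8.998 through 9.05 to 9.35 in control and from 9.05 through 9.12 to 9.23 in learning activated arrays, with the highest and the lowest value both in the control group. Its log2 fold change was 0.03 (SE 0.0544, limma adjusted p = 0.818), with an interval from -0.09 to 0.14. The dimmer one ran from 7.99 through 8.56 to 8.76 in control and from 8.72 through 8.91 to 9.003 in learning activated arrays. Of the learning activated arrays 6 lay above the highest control array, and all 7 above the control mean. Its means were 8.89 ± 0.11 and 8.43 ± 0.26 (SD, n = 7 each), a log2 fold change of 0.46 (SE 0.0991), or 1.37-fold with an interval from 1.19-fold to 1.59-fold (adjusted p = 0.0233, unadjusted exact permutation p = 0.00117). The suffix of its name, s, marks a set whose probes can match more than one transcript. The call was lost without control replicate 1 (adjusted p = 0.0550), control replicate 3 (0.0528) or learning activated replicate 4 (0.0517).

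Within each array the dimmer Ina probe set was compared with the brighter one, a contrast chosen after the values were seen. The difference was -0.67 ± 0.22 in control and -0.24 ± 0.13 in learning activated arrays (SD, n = 7 each), a shift of 0.43 (two-sided exact permutation p = 0.00117). It was above the highest control array in 6 of 7 learning activated arrays. The probe sets of Nefl showed no such split: dimmer minus brighter shifted by -0.06 (exact permutation p = 0.260). They share a source sequence and lie at nearly the same mean level, 12.12 and 12.01, so this does not set Nefl apart from Ina. Probe sets of other genes shifted against each other in the same direction. Taken over 350 genes with a gap of 2 log2 units or more between their dimmest and brightest tested probe sets, the dimmest minus the brightest averaged -3.42 ± 0.11 in control and -3.25 ± 0.03 in learning activated arrays, a shift of 0.17 (exact permutation p = 5.83e-04, the smallest that the 3432 assignments can give). The Ina probe sets, at mean levels of 9.12 and 8.66, lie closer together than those of the 350 genes. They shifted by more than the mean over those genes, whose spread from gene to gene was not measured. Among the related genes below, some had wider splits, such as Map2 (1.36 at a dimmer probe set, 0.05 at the brightest) and Map1b (1.06 and 0.07). Others had narrower ones, such as Ank3 (0.46 and 0.28). The part of this balance between probe sets in the Ina result was not tested beyond its use as a covariate. With it as a covariate the log2 fold change was 0.45 at the dimmer and 0.15 at the brighter Ina probe set (limma adjusted p = 0.436 and 0.554). The balance itself separated the groups fully, from -3.65 to -3.34 in control and from -3.30 to -3.20 in learning activated arrays. This fit therefore cannot divide balance from group.

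**Figure D2:**
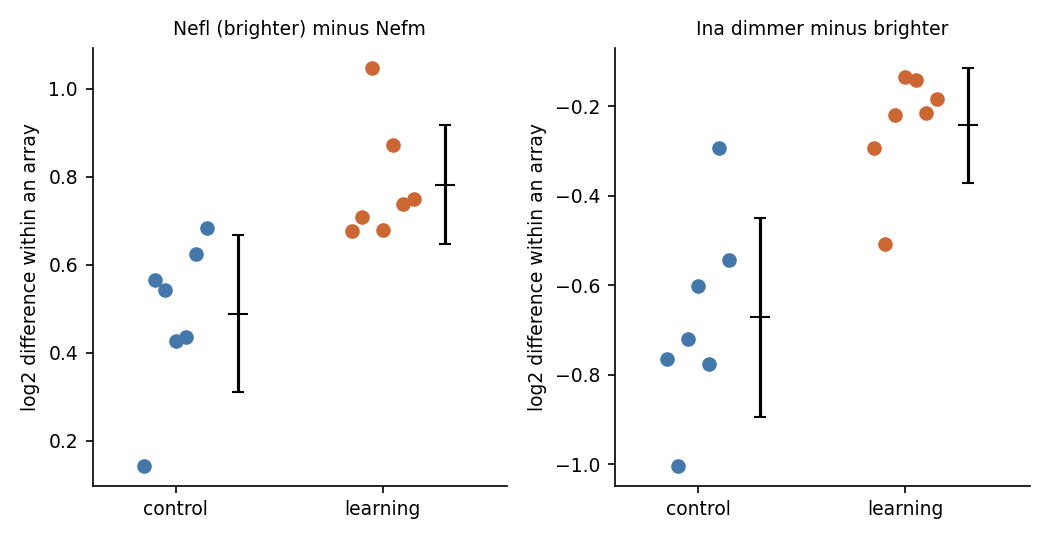
Left, log2 level of the brighter Nefl probe set minus that of Nefm on the same array; right, the dimmer minus the brighter Ina probe set. Points are single arrays (blue control, orange learning activated), and bars are the mean and SD of 7. Both differences lie higher in the learning activated arrays, by 0.29 for Nefl minus Nefm and by 0.43 for Ina, with a slight overlap of the groups in each.

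Differences between members within an array ask whether one subunit changed by another amount than its partner, and they say nothing of which transcript is more abundant. The 6 pairs of members were compared by their brighter or only probe sets. Nefl minus Nefm was 0.49 ± 0.18 in control and 0.78 ± 0.14 in learning activated arrays (SD, n = 7 each). This shift of 0.29 was the one that passed (two-sided exact permutation p = 0.00175, adjusted over the 6 pairs p = 0.0105), and all 7 learning activated arrays lay above the control mean. It stayed past the threshold when any single array was left out (exact permutation, adjusted p = 0.0035 to 0.0245). Nefl minus Ina shifted by 0.21 (exact p = 0.0221, adjusted p = 0.0664) and Nefl minus Nefh by 0.20 (exact p = 0.0495, adjusted p = 0.0991), neither past the threshold after adjustment. Without learning activated replicate 2 both passed, with shifts of 0.25 and 0.26 (adjusted p = 0.0117 for each). Nefl minus Ina also passed without control replicate 2 (0.24, adjusted p = 0.0490) or 6 (0.24, adjusted p = 0.0385). Nefm minus Nefh (-0.09), Nefm minus Ina (-0.08) and Nefh minus Ina (0.01) had adjusted p of 0.433, 0.448 and 0.869 in the exact test.

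These pairs depended on which Ina probe set stood for the gene. With the dimmer probe sets of Ina and Nefl, Nefl minus Ina was -0.28 (exact permutation, adjusted p = 0.0367), Nefm minus Ina -0.51 (adjusted p = 0.0035) and Nefh minus Ina -0.42 (adjusted p = 0.0117). Nefl minus Nefm kept its direction at 0.24 with the dimmer Nefl probe set and was 0.26 with the mean of both.

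Although the subunits assemble together, no correlation of their transcript levels from animal to animal passed its test. Even probe sets of the same gene correlated only at r = 0.55 for Nefl and 0.44 for Ina. Low values between members therefore need not mean that their transcripts vary apart. Over the 14 arrays, with each level taken relative to its group mean, Pearson's r between members ran from -0.26 for Nefl with Nefh to 0.30 for Nefh with Ina (permutation within groups, adjusted p = 0.958 for each of the 6 pairs). Spearman's rho ran from -0.13 to 0.32 (permutation, adjusted p = 0.878 to 0.963), and r ran from -0.42 to 0.25 without the 2 arrays farthest from the median. Within single groups, 12 relations in all, the strongest were Nefl with Nefh among learning activated arrays (r = -0.84, exact permutation p = 0.0171; rho = -0.61, exact p = 0.167) and Nefm with Nefh among control arrays (r = 0.73, exact p = 0.0546; rho = 0.57, exact p = 0.200). Neither passed after adjustment over the 12 (exact permutation, adjusted p = 0.205 and 0.327). Without the 2 farthest arrays they were -0.88 and 0.13. The spread between animals was small for all 4 genes, with SDs from 0.0577 to 0.15 in 11 of the 12 sets of 7 levels and 0.26 in the control levels of the dimmer Ina probe set.

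The gene whose level most followed the mean group-centred profile of the 4 members was Calb2, the calcium-binding protein calretinin of some interneurons (r = 0.89 over 14 arrays). It was followed by the RNA polymerase subunit Polr2k (0.82), Morf4l2 (0.82), the phospholipase Pnpla8 (0.81) and the endothelial receptor Eng (0.79). Of 6832 genes ranked, Marf1 (-0.81) and Ddn (-0.77), a dendritic and postsynaptic protein, lay at the other end. These values describe a ranking, and the arrays share their processing. The profile averages members whose own r with it ran from 0.36 for Nefl to 0.58 for Nefm. No correlation between members passed its test. Calb2 was low, with means (± SD) of 4.32 ± 0.14 in control and 4.23 ± 0.06 in learning activated arrays. The dim cutoff was 3.88. Eng was also low, at 4.88 in control and 4.84 in learning activated arrays. The group means of Polr2k, Morf4l2 and Pnpla8 ran from 9.14 to 11.27. For Calb2 the likeness was strongest with Ina (r = 0.74) and weakest with Nefl (0.16), and Calb2 itself was not called (log2 fold change -0.09, limma adjusted p = 0.378).

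The mean of general neuronal markers was also higher in the learning activated arrays. Because the tissue is a mixture, a different share of neurons and a different amount of RNA per neuron cannot be told apart in these arrays. The groups also differed in probe set balance and, as given below, in the Gapdh ratio and spike-in level. The part of these technical differences in the neuronal mean was not tested. The mean level over 7 of 7 general neuronal markers was 10.75 ± 0.03 in learning activated and 10.66 ± 0.04 in control arrays, 0.09 higher (two-sided exact permutation p = 5.83e-04, the smallest possible). All 7 were above the dim cutoff, and their summed linear level ran from 17694 to 19369 in control and from 19184 to 20044 in learning activated arrays. None was called in limma, although 4 had an unadjusted p under 0.05: Rbfox3 (0.20), Syn1 (0.17) and Snap25 (0.12) above 0 and Eno2 (-0.14) below. In all 5 of the 7 were above 0, and 1 was called with the mean over a gene's probe sets. Relative to this neuronal mean on the same array, a contrast added after the data were seen, the brighter Nefl probe set was still 0.15 higher (exact permutation p = 0.0163, adjusted over the 6 probe sets p = 0.0490) and the dimmer Ina probe set 0.37 higher (exact p = 0.00233, adjusted p = 0.0140). The dimmer Nefl probe set was 0.09 higher (exact p = 0.0472) and Nefm -0.14 (exact p = 0.0449), each with an adjusted p of 0.0708.

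The mean differences of the other marker lists lay between -0.46 and 0.0014 (exact permutation p as given, unadjusted). Bok and Grik4, the CA3 markers measured, were above the dim cutoff, and the mean of the 2 differed by -0.0022. Interneuron markers, 7 of 8 measured and all above the cutoff, averaged 6.93 in both groups (difference 0.0014, exact permutation p = 0.990). That mean joins 1 gene above 0, Gad2, an enzyme of GABA synthesis (0.76, limma adjusted p = 0.110), with 6 below 0, and the median gene had -0.12. The 6 were the peptide gene Sst (-0.23, adjusted p = 0.131), the vesicular GABA transporter Slc32a1 (-0.18), Gad1 (-0.14), Pvalb, the parvalbumin of fast-spiking interneurons (-0.12), Npy (-0.07) and Vip (-0.03), and 0 of the 7 were called in limma, while Gad2 and Sst, 2 of them, had an unadjusted p under 0.05. Markers of CA1 (-0.03, exact p = 0.862), the dentate gyrus (-0.15, exact p = 0.202), oligodendrocytes (-0.10, exact p = 0.158), astrocytes (-0.0066, exact p = 0.855), microglia (-0.08, exact p = 0.216) and endothelium (-0.06, exact p = 0.191) did not pass. The astrocyte mean likewise joins the glutamate transporter Slc1a2 (0.45, limma adjusted p = 0.0858) with 6 genes below 0, among them Aldh1l1 (-0.21, adjusted p = 0.170), around a median of -0.06. With the mean over a gene's probe sets that median was 0.15 and 2 astrocyte genes were called higher. Choroid plexus markers, 4 of 6 below the dim cutoff, averaged 0.46 lower (exact p = 0.00117). Their summed level ran from 209.8 to 869 in control and from 109.1 to 215 in learning activated arrays. Ttr, the transthyretin that choroid plexus makes in bulk, had a log2 fold change of -2.09 (limma adjusted p = 0.0124) and Igfbp2 -0.70 (adjusted p = 0.237). In the fit without the dim filter 3 of the 6 lay above 0, around a median of -0.01. With 4 of them below the dim cutoff, where a fall can hardly be seen, that count cannot say whether the list fell. The 2 above the cutoff, Ttr and Igfbp2, both lay below 0. The part of any of these lists in the Nefl and Ina results was not tested.

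Of 3 ratios of RNA quality 1 differed between the groups, and so did the hybridization controls. The Gapdh 3'/5' ratio was 0.45 ± 0.05 in learning activated and 0.51 ± 0.06 in control arrays on the log2 scale (exact permutation p = 0.0443), and the spike-in probe sets were 0.20 brighter in learning activated arrays (exact p = 0.00524). Neither of the other ratios passed: hexokinase gave 1.30 ± 0.05 in learning activated and 1.53 ± 0.49 in control arrays (exact permutation p = 0.281), and beta-actin 1.31 ± 0.03 and 1.36 ± 0.15 (exact p = 0.460). Control replicate 5 had the highest value of any array in each ratio, with 0.64 for Gapdh, 2.57 for hexokinase and 1.65 for beta-actin. The ratios were not compared without it. With the Gapdh ratio as a covariate the log2 fold changes were 0.26 and 0.18 for the Nefl probe sets and 0.50 for the dimmer Ina probe set, and 0 of the 6 probe sets were called (limma adjusted p = 0.109, 0.145 and 0.0803). With the spike-in level the values were 0.26, 0.17 and 0.52 (adjusted p = 0.0858, 0.154 and 0.0534), and with the probe set balance described above 0.19, 0.13 and 0.45 (adjusted p = 0.532, 0.612 and 0.436). Calls over the whole array fell in the same fits, from 319 to 39, 143 and 0. Because the balance separates the groups fully, the last of these fits cannot divide balance from group. The plot of fold changes sets these values beside the intervals.

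**Figure D3:**
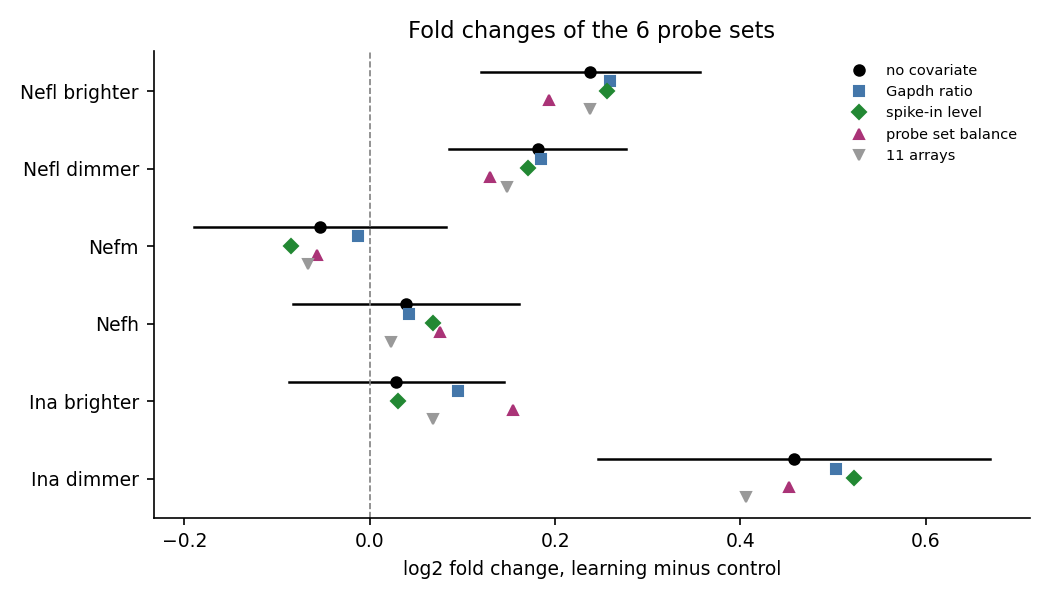
Log2 fold change, learning activated minus control, of the 6 probe sets. Black circles with lines are the values without a covariate and their 95% intervals, other symbols are the values with the Gapdh 3'/5' ratio, the spike-in level or the probe set balance as a covariate, or over the 11 arrays left without 3 that stood apart. The points of Nefl and of the dimmer Ina probe set lie above 0 in each, from 0.13 to 0.52, and those of Nefm lie below 0.

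Genes that build, modify, move or break down neurofilaments were read from 6 lists, each gene by its brightest tested probe set. Over all 6836 genes the median log2 fold change was -0.03, and 2465 lay above 0, with 109 genes called higher and 67 lower. Of 13 other intermediate filament genes listed, 8 were dim, among them Prph, the peripherin of peripheral neurons, and Nes, the nestin of progenitor cells. All 4 that were tested had values below 0, as most genes on the array did: the glial and vascular filament Vim (-0.39, adjusted p = 0.114), Synm (-0.17), the astrocyte filament Gfap (-0.12) and the nuclear lamin Lmna (-0.06). None was called in limma, and 1, Vim, had an unadjusted p under 0.05.

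Of 10 tested kinase and phosphatase genes that can act on neurofilament tails, 2 rose. They were Csnk1a1, a casein kinase (0.20, SE 0.0286, adjusted p = 0.00323), and Mapk9, a JNK kinase (0.54, SE 0.121, adjusted p = 0.0292). The median of this list was 0.04, and the tail kinase Gsk3b (0.18, adjusted p = 0.0796), the Cdk5 activator Cdk5r1 (0.34, adjusted p = 0.188) and Cdk5 itself (-0.0044) did not pass. Of 9 transport and linker genes 1 rose, the actin motor Myo5a (0.91, SE 0.207, adjusted p = 0.0301), whose protein is known to bind the light subunit. Others lay near 0, with -0.05 for Klc1, -0.07 for Kif5b and -0.06 for the linker Plec, and the list median was -0.04.

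Of 6 genes of turnover and RNA binding 0 were called in limma and 2 had an unadjusted p under 0.05, the ubiquitin ligase Stub1 (-0.14, adjusted p = 0.109) and the protease Capn2 (-0.15, adjusted p = 0.201). Arhgef28, which binds the light subunit's messenger RNA, had -0.12 and Tardbp, which also binds it, 0.09. The median was -0.06.

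Among the other parts of the neuronal cytoskeleton, 0 of 8 microtubule genes were called at their brightest probe sets in limma, and 0 had an unadjusted p under 0.05. Map6 had 0.08, Map1b 0.07, Map4 -0.05 and Map1a -0.07, and the median was 0.0048. Of 8 ankyrin, spectrin and adducin genes 1 rose, Ank3, the ankyrin of the axon initial segment (0.28, adjusted p = 0.0382), and Sptb (0.14), Sptan1 (-0.05) and Add3 (-0.03) did not pass. In these lists too, calls at dimmer probe sets stood beside uncalled brighter ones: Map2 (1.36), Map1b (1.06), Sptbn1 (0.53 and 0.80) and Add3 (0.57) were called only there, as Ina was. Nefl was called at its brightest probe set as well as its dimmer one, a description and not a test. The same held for Ank3 (0.28 and 0.46) and Csnk1a1 (0.20 and 0.45). Without the filter on dim probe sets, 1 gene of the kinase list and 0 of the transport and ankyrin lists were called in limma, as 53 higher and 33 lower of all 10411 genes were. With the mean over a gene's probe sets, 2 microtubule and 3 ankyrin, spectrin and adducin genes were called, beside 159 higher and 67 lower of all 6836 genes.

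**Figure D4:**
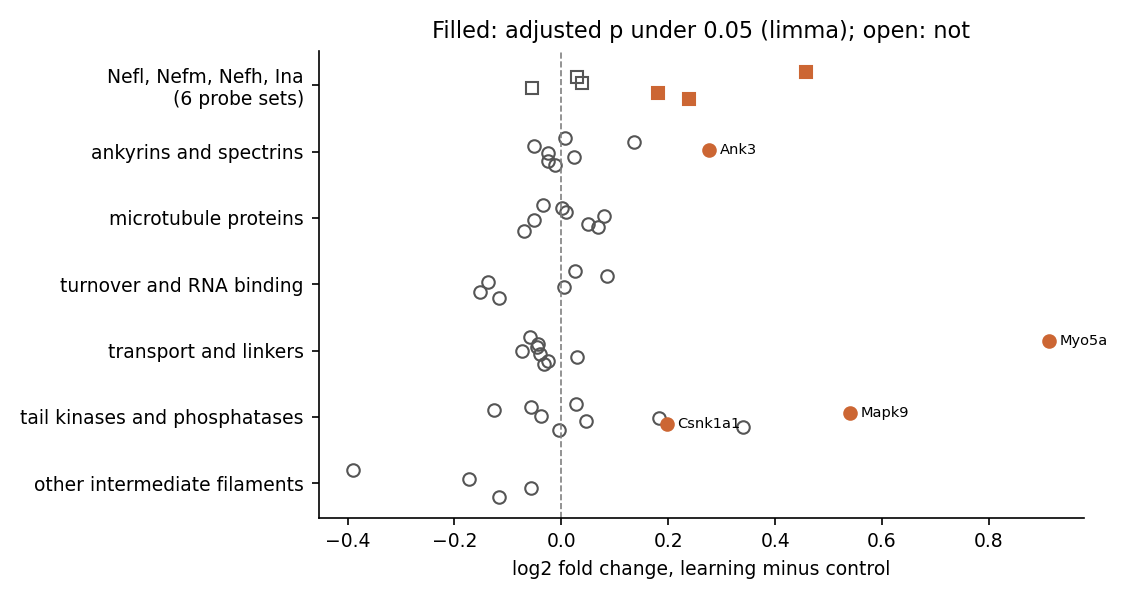
Log2 fold change, learning activated minus control, of each tested gene of the 6 lists (circles, brightest probe set of a gene) and of the 6 probe sets of Nefl, Nefm, Nefh and Ina (squares). Filled symbols have a limma adjusted p under 0.05; Csnk1a1, Mapk9, Myo5a and Ank3 are the called genes of the lists, and the 4 other intermediate filament genes lie below 0.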

How the data were processed

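The authors deposited log2 expression values, made with GCRMA per the submitters' processing notes (version and settings: not given in the sources used here). That the scale is log2 was judged by the range of the values. GCRMA corrects background by probe sequence and normalizes between arrays, and it can compress changes near background. Array medians lay between 5.07 and 5.09. Arrays have no read depth, so their number limits the precision. Groups and replicate numbers came from the sample titles.

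The annotation named 1 gene for 12789 probe sets, of which 12754 matched RefSeq's GRCr8 table. Control probe sets (57) and 6346 dim ones (mean below the 40th percentile) were left out. The other 9520 were fitted with limma 3.58.1 in R 4.3.3 (lmFit, eBayes, Benjamini-Hochberg), tested on simulated data. Per-array differences were compared by exact permutation of the 14 arrays, and correlations by 100000 permutations within groups. Named genes were all members, the called or 4 lowest-p genes of each list, the 5 genes most like the members and the 2 least like them. Cdk5 and genes called only at dimmer probe sets were named after their values were seen, as were Prph, Nes and the markers singled out. The members and lists were chosen with earlier results of these data known.

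Alternatives were other dim filters, variance settings, array weights, normalizations, covariates, the replicate number as a block and leaving out arrays. The covariates other than the Gapdh and hexokinase ratios, the removal of 3 arrays with the lowest correlation to the rest, the contrasts with the other probe sets and with the neuronal markers, and the correlations within groups were added after the data were seen.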

Additional observations from a re-analysis of the deposited data

Results flagged for a closer look

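Of the 12 sets of 7 levels (6 probe sets in 2 groups), 2 held an array far from the others by a gap test, which chance does for about 1 in 20. Control replicate 1 was the lowest at the brighter Nefl probe set, with a log2 level of 11.74 against 11.98 for the next. Without it the log2 fold change was 0.19 (limma adjusted p = 0.0345). Learning activated replicate 2 was the highest for Nefh, at 10.44 against 10.23 for the next. Without it the log2 fold change of Nefh was 0.0036 (limma adjusted p = 0.981).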

How the results depend on the processing

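All 6 probe sets kept their direction in all 29 alternatives, and the 3 not called stayed uncalled. The count of called probe sets, 3 of 6, was 0 without a dim filter, with the Gapdh ratio, the spike-in level or the probe set balance as covariate and without the 3 arrays that stood apart (control replicates 2 and 5, learning activated replicate 6), 1 with the hexokinase ratio, and 0 to 3 without single arrays. Fold changes that lost their call, in the order brighter Nefl, dimmer Nefl and dimmer Ina, were 0.24, 0.18 and 0.46 with no filter (adjusted p = 0.0587, 0.0581 and 0.0578), 0.26, 0.18 and 0.50 with the Gapdh ratio, 0.26, 0.17 and 0.52 with the spike-in level, 0.19, 0.13 and 0.45 with the balance, and 0.24, 0.15 and 0.41 without the 3 arrays. The hexokinase ratio took the call from both Nefl probe sets (0.25 and 0.18), and array weights (0.17) and the beta-actin ratio (0.18) from the dimmer one. Over all 14 removals of a single array, whether or not the call was lost, the fold changes ran from 0.19 to 0.26, 0.16 to 0.20 and 0.39 to 0.51. No filter tests more probe sets, and fewer arrays leave less precision. The balance separates the groups fully, so its fit cannot divide balance from group. The cause of the other changes was not tested. Calls over all probe sets ran from 0 to 380, against 319.

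Among the pairs, single arrays left out moved Nefl minus Nefh from 0.16 to 0.26 and Nefl minus Ina from 0.16 to 0.25. The mean of probe sets gave -0.30 for Nefm minus Ina, which then passed, and the other probe sets -0.28, -0.51 and -0.42 for Nefl, Nefm and Nefh minus Ina. The sample titles give replicate numbers and no pairing of the rats, and no clear sign of pairing was seen. Same-numbered arrays deviated together with r from -0.16 to 0.13, and 2 of 7 control arrays correlated best with their own number. With the replicate block 3 probe sets were called, and 313 over the array. In the paired sign-flip test Nefl minus Nefm was still 0.29, and its adjusted p was 0.0938. With 7 pairs of arrays and 6 tests, a lower adjusted p needs low p-values in other pairs of members too.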
